A study of Mus musculus with 8 samples.

Results

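Oligo2a is one of 8 clusters into which the authors divided the oligodendrocytes of aged mouse brain, and its cells were taken by that deposited cluster name. The cluster held 1569 of the 15604 oligodendrocytes (10.1%), next to Oligo2b (2765 cells), Oligo2c (971 cells), Oligo1a (2834 cells), Oligo1b (1880 cells), Oligo1c (3200 cells), the age-related oligodendrocytes (ARO, 2138 cells) and the interferon-responsive oligodendrocytes (IRO, 247 cells). The study asked how oligodendrocytes and microglia of gray and white matter change with age, and what part lymphocytes play. Its comparison with young mice is not among the libraries used here. These compare gray and white matter of old mice, with and without mature lymphocytes. Live cells were sorted from frontal cortex (gray matter) or from optic tract, medial lemniscus and corpus callosum (white matter), and were sequenced on the 10x droplet platform, which counts unique molecular identifiers (UMIs) at the 3′ end of transcripts. All 8 libraries came from 24-month-old mice. Wild-type C57BL/6 mice gave 2 gray matter and 2 white matter libraries. Mice labelled Rag1KO, with the strain given as NOD.129S7(B6)-Rag-1tm1Mom/J, gave 1 gray matter and 3 white matter libraries and are called Rag1-/- here. The study's methods place Rag1-/- mice on a C57BL/6J background instead, and which of them holds for these libraries could not be settled. Rag1 is needed for antigen receptor rearrangement, and mice without it lack mature T and B cells from birth. Animals were pooled in the wild-type libraries and in the first Rag1-/- pair, and gray and white matter libraries of one number came from the same pool, whereas Rag1-/- white matter 2 and 3 were from 1 mouse each.

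Oligodendrocytes wrap axons with myelin, and mature cells fall into several transcriptional types that are mixed in different proportions along the brain and spinal cord. A type marked by Klk6, Hopx and Anxa5 is known from fiber tracts, whereas a type marked by Ptgds, Il33 and Opalin is common in gray matter. Anln, anillin, is an actin-binding scaffold that in dividing cells organizes the cleavage furrow and in mature oligodendrocytes loads septin filaments onto the myelin sheath. Hopx is a small homeodomain protein that does not bind DNA and acts as a cofactor of transcription.

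Sums over the Oligo2a cells ranged from 152610 UMIs (11 cells, wild-type gray matter 1) to 7537773 UMIs (517 cells, Rag1-/- white matter 3). Between libraries, no Oligo2a barcode was shared in any of the 28 pairs, and at most 15 barcodes were shared when all cells were counted. Wild-type white matter 1 stood apart from wild-type white matter 2 in stress and hormone-response genes, and wild-type gray matter 1 in its low mitochondrial counts, and results that rest on either are given without it as well. Genotype coincides with the strain name in the labels, with the sequencing experiment, with the version of Cell Ranger used to count the reads and with the list of genes counted, so that these cannot be told apart from the effect of Rag1. Rag1 itself had 1 UMI in the Oligo2a cells of the 4 wild-type libraries, 0 in Rag1-/- gray matter and 12, 13 and 11 in the Rag1-/- white matter libraries. Reads at the 3′ end of a gene do not test a deletion inside its coding sequence, so these counts are no check of the labels.

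Anln and Hopx, the genes that mark the cluster, were both high in Oligo2a of every library. Anln, located on chromosome 9 (22332012 to 22389188, GENCODE vM21 on GRCm38, minus strand), was measured at 1280 and 1461 UMIs per 1e6 UMIs of the summed cells (CPM) in wild-type gray matter, 1477 and 1702 in wild-type white matter, 1539 in Rag1-/- gray matter and 1737, 1382 and 1419 in Rag1-/- white matter. Its mean was 1500 ± 156 CPM (SD, n = 8) in Oligo2a, 1309 ± 153 (n = 5) in Oligo2c and 1007 ± 182 (n = 8) in Oligo2b, so that Oligo2a and Oligo2c overlapped. It then fell off to 677 ± 110 in Oligo1b, 564 ± 168 in IRO, 542 ± 118 in Oligo1c, 431 ± 78.0 in ARO and 384 ± 73.0 in Oligo1a. Anln ranked 58 of 3643 genes by its difference to all other oligodendrocytes, and its level stepped down from the Oligo2 to the Oligo1 clusters.

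Hopx separated Oligo2a more sharply from Oligo2b, whereas Oligo2c, at 704 to 874 CPM, overlapped with it. The gene lies on chromosome 5 (77086988 to 77115121, minus strand) and reached 851 and 776 CPM in wild-type gray matter, 947 and 1025 in wild-type white matter, 734 in Rag1-/- gray matter and 1051, 1242 and 1178 in Rag1-/- white matter. Its mean was 976 ± 183 CPM in Oligo2a, 803 ± 70.9 in Oligo2c, 317 ± 135 in Oligo2b and 39.2 ± 37.9 in Oligo1a. In all 8 libraries the Oligo2a value lay above that of Oligo2b, which was 172 and 150 CPM in wild-type gray matter and 366 and 419 in wild-type white matter. Hopx ranked 9 of 3643 genes. These comparisons between clusters carry no test, since the clusters were drawn from the same counts.

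**Figure D1:**
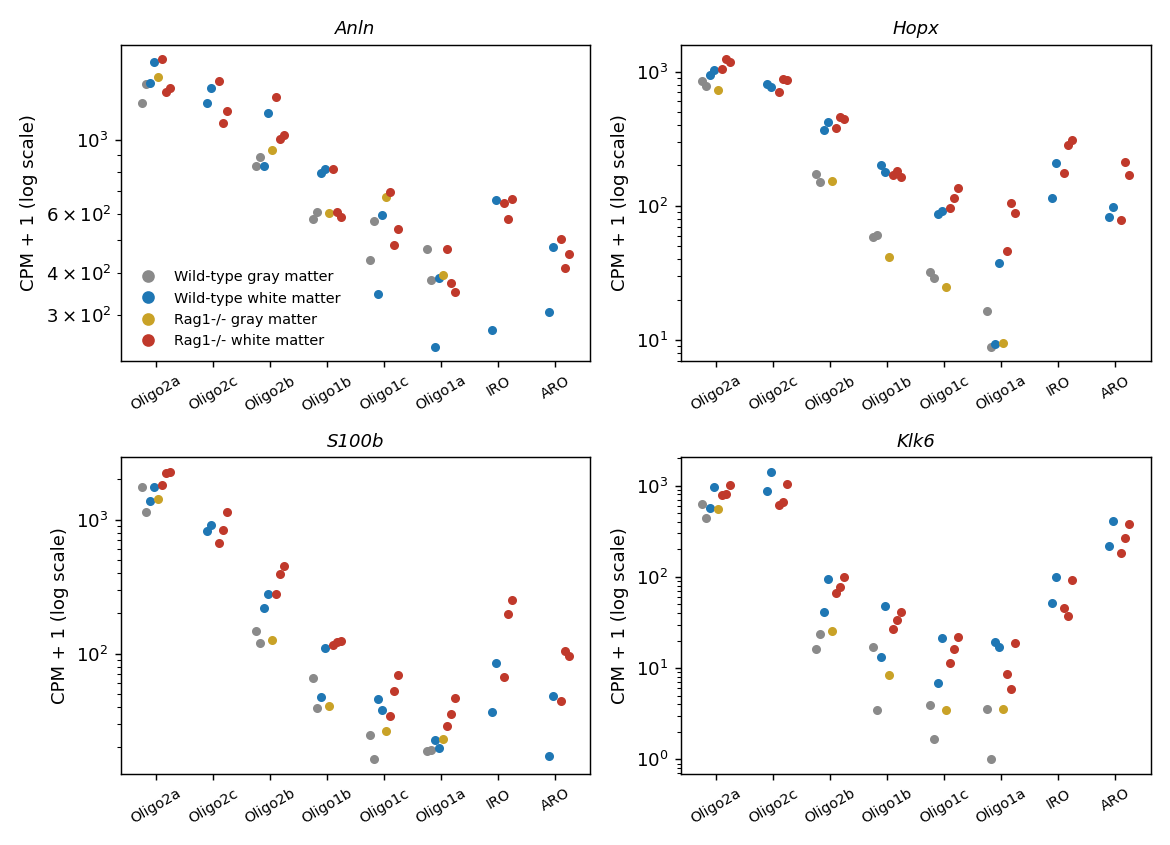
Level of Anln, Hopx, S100b and Klk6 (CPM + 1, log axis) in the summed cells of each cluster, 1 point for each library with at least 10 cells of the cluster, colored by genotype and tissue. Oligo2a lies highest for S100b, with all of its libraries between 1142 and 2269 CPM, while Oligo2c overlaps with it for Anln, Hopx and Klk6.

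The pair was found in nearly every single cell. At least 1 UMI of Anln and at least 1 of Hopx were present together in 97.1 to 100% of the Oligo2a cells of a library, in 94.3 to 99.0% of Oligo2c cells, in 44.9 to 89.2% of Oligo2b cells and in 15.0 to 43.5% of Oligo1 cells. Oligo2a cells hold more UMIs, so each cell was also thinned to 5000 UMIs, which left out 12 Oligo2a cells. Hopx was then found in 88.6 to 100% of Oligo2a cells (97.1 to 100% without thinning) and in 32.7 to 76.5% of Oligo2b cells (44.9 to 89.9%). Among microglia of the Rag1-/- libraries, which should lack the gene, 0.577 to 4.95% of cells held a Hopx UMI (median of 5416 to 6751 UMIs per cell in a library, against 12768 to 18661 in Oligo2a of the 8 libraries).

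Beyond these markers, 690 of the 3643 genes at 50 CPM or more were higher in Oligo2a than in the other oligodendrocytes of all 8 libraries, and 502 were lower in all 8. The genes furthest above the rest were S100b, a calcium-binding protein (median log2 difference of 3.45, range of 3.04 to 4.60), Nkx2-9, a homeodomain transcription factor (3.39), Uchl1, a deubiquitinating enzyme (2.98), Faah, which breaks down endocannabinoids (2.91), and Klk6, a secreted serine protease (2.85). Cbs, the enzyme that makes cystathionine from homocysteine (2.73), Arfgef3 (2.66), Ldhb, the lactate dehydrogenase subunit that favors pyruvate (2.43), Hopx (2.28), the tetraspanin Tspan9 (2.28), the lipid droplet protein Plin3 (2.24), Serpind1 (2.24), the cyclin-dependent kinase inhibitor Cdkn1c (2.23), Aven (2.18), the small GTPase Rnd2 (2.17) and the phosphatidylserine-binding protein Anxa5 (2.09) followed. All 16 were higher in each library.

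S100b shows the size of these differences. It measured 1735 and 1142 CPM in Oligo2a of wild-type gray matter, 1373 and 1744 in wild-type white matter, 1429 in Rag1-/- gray matter and 1814, 2210 and 2269 in Rag1-/- white matter. In Oligo2b it was 147 and 118 CPM in wild-type gray matter and 391 and 453 CPM in Rag1-/- white matter 2 and 3, and in Oligo1a it stayed between 18.0 and 45.8 CPM. Oligo2c came closer, since S100b was found in 74.8 to 86.1% of its cells in a library, against 97.1 to 100% of Oligo2a cells. Nkx2-9 was present in 68.9 to 88.8% of the Oligo2a cells of a library, in 41.4 to 50.3% of Oligo2c, in 4.29 to 33.7% of Oligo2b and in 0.394 to 4.04% of Oligo1 cells. After thinning to 5000 UMIs these were 30.2 to 70.0%, 22.8 to 27.5%, 0 to 13.5% and 0.133 to 1.78%.

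At the other end, Adamts1, an extracellular protease, was nearly missing from Oligo2a, at 0 to 5.80 CPM in a library (median log2 difference of −5.22). Ptgds, the prostaglandin D2 synthase of gray matter oligodendrocytes, was lower by a median of −4.24, yet still measured 904 and 907 CPM in wild-type gray matter, 1787 and 351 in wild-type white matter, 576 in Rag1-/- gray matter and 384, 226 and 355 in Rag1-/- white matter. Wild-type white matter 1 held the highest of these values, and the 2 wild-type white matter libraries differed more from each other than the 2 gray matter libraries. Opalin, a sialylated myelin membrane protein, averaged 89.8 ± 35.5 CPM in Oligo2a (median log2 difference of −3.83), and the potassium channel gene Kcna2 9.21 ± 5.22 CPM (−3.37). Aebp1 (−3.12), Srgap1 (−2.98) and Ttyh1 (−2.79) followed, and these 7 genes were lower in each library. Aebp1 and Ttyh1 reached 50 CPM in the other oligodendrocytes through wild-type gray matter 1, without which their means there were 48.6 and 48.5 CPM.

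**Figure D2:**
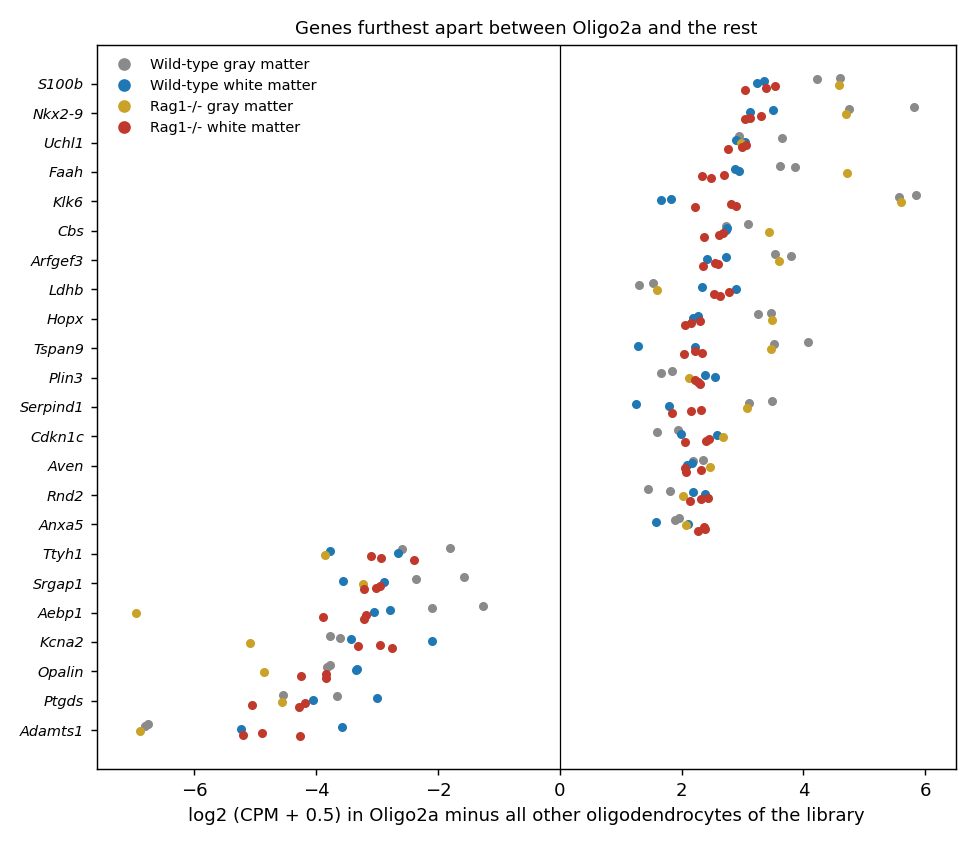
Difference between Oligo2a and all other oligodendrocytes of the same library, as log2 (CPM + 0.5), for the 16 highest genes and 7 of the lowest among those at 50 CPM or more; each point is 1 library. Every point of the upper 16 genes lies right of 0 and every point of the lower 7 left of it, and Klk6 spreads widest among the upper genes, from 1.66 in white matter to 5.86 in gray matter.

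Set beside Oligo2b alone, Klk6 led (median log2 difference of 3.68), followed by S100b (2.69), Cdkn1a (2.62), Uchl1 (2.44), Faah (2.41) and Nkx2-9 (2.30). Klk6, on chromosome 7 (43824499 to 43832030, plus strand), measured between 442 and 1021 CPM in Oligo2a and between 15.0 and 97.3 CPM in Oligo2b. Cdkn1a, a cell cycle inhibitor induced by stress, was higher in 6 of 8 libraries only and reached 50 CPM through wild-type white matter 1, where it measured 464 CPM. Without that library its mean in Oligo2a was 11.3 CPM, and it left the ranking. Set beside Oligo2c, in the 5 white matter libraries with at least 10 cells of both, the highest genes were Cdkn1a (2.01), Art3 (1.83), the membrane receptor Paqr6 (1.80), 1700063D05Rik (1.54), Tubb2a (1.54) and Luzp2 (1.54). Here too Cdkn1a left the ranking without wild-type white matter 1, with a mean of 17.6 CPM in the 4 remaining libraries, and Tubb2a was higher in 4 of the 5 libraries. Klk6 was not among them, since it ranged from 610 to 1414 CPM in Oligo2c.

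Groups of genes with known roles divided in the same comparison. Among all 9429 genes with at least 5 CPM, 11.3% were higher than the rest in every library and 10.2% were lower in every library. All 8 genes of the Klk6 and Hopx type were higher (median log2 difference of 2.19), as were 47 of 49 markers that the study took from Oligo2 cells sequenced by Smart-seq2 (1.81). Of the 14 Oligo1 markers from the same source, 11 were lower in every library and 1 was higher (−1.84). Of the 8 genes of the Ptgds type, 4 were lower throughout, among them Il33 (−1.47) and Jph4 (−1.36), whereas the lipid carrier Apod (0.98) and transferrin, Trf (0.44), were higher throughout.

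The myelin genes did not move together. Of 22, 9 were higher and 5 were lower in every library, with a median of 0.02. Gjb1, a connexin of oligodendrocyte gap junctions, was higher (0.87), as was Gal3st1, which makes sulfatide (0.56). Opalin, Tspan2 (−1.15), Mal (−0.85), Nfasc (−0.57) and the small heat shock protein Cryab (−0.50) were lower. Mog, Mag, Cnp, Mobp and Cldn11, which define oligodendrocytes, were all well detected, the lowest of them being Mog with a mean of 1231 CPM.

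Among anillin, the septins and their partners, 7 of 14 genes, Anln included, were higher in every library and 2 were lower. Sept8 was higher (0.62) and Sept4, a septin of the myelin filaments, was lower (−0.51, at 1821 ± 303 CPM), while Sept7 was higher in 4 of 8 libraries (0.00, at 2421 ± 193 CPM). Genes of cell division were near 0, since 2 of 16 reached 5 CPM and Mki67, Top2a, Cdk1 and Aurkb each stayed at a mean under 5 CPM. Of 21 cholesterol synthesis genes, 8 were higher in every library and 0 were lower (median of 0.39), among them Hmgcs1 (0.69), Sqle (0.78) and Idi1 (0.64). Of the 10 immediate early genes, 7 were lower in every library (median of −1.09), with Nr4a1 at a median log2 difference of −4.84 and Junb at −2.62. Of 8 interferon-stimulated genes, 0 were higher in every library and 1 was lower.

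Oligo2a cells were the deepest oligodendrocytes. Their median UMI count was the highest of the clusters with at least 10 cells in all 8 libraries, at 1.36 to 1.63 times that of the other oligodendrocytes. Over all cells the medians were 14478 against 9745 UMIs, 4128 against 3272 genes and 4.44% against 5.51% mitochondrial UMIs. Oligo2c came close, with medians of 12906 UMIs, 3836 genes and 4.49% mitochondrial UMIs. In wild-type white matter 1 the UMI medians of Oligo2a and Oligo2c were 15892 and 15856.5. Cells of 20000 UMIs or more made up 36.5% of Oligo2a in Rag1-/- white matter 2 (72 of 197 cells), 7.93% in Rag1-/- white matter 3, 11.1 and 8.09% in wild-type white matter 1 and 2 and 0% in the gray and white matter library of the first Rag1-/- experiment, where no other oligodendrocyte reached this number either. Among the other oligodendrocytes, cells of 20000 UMIs or more made up 3.62 and 1.71% in Rag1-/- white matter 2 and 3. In wild-type white matter 1 and 2 they made up 2.00 and 2.14%. In each of these white matter libraries they were thus a larger part of Oligo2a. The authors' limits on UMIs differed between experiments, and the study's methods set under 20000 for the first Rag1-/- experiment. How many Oligo2a cells that limit removed was not tested.

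Oligo2a cells took a larger share of oligodendrocytes in white matter than in gray matter. In wild-type gray matter, 11 of 284 and 35 of 1119 oligodendrocytes were Oligo2a, or 3.87% (95% exact binomial interval of 1.95 to 6.82) and 3.13% (2.19 to 4.32). In wild-type white matter, 45 of 494 and 371 of 4106 were, or 9.11% (6.72 to 11.999) and 9.04% (8.18 to 9.95). The white matter libraries lay above both gray matter libraries, with a log2 difference of 1.42 ± 0.252 (SE; adjusted p = 0.00123, edgeR quasi-likelihood test on cell numbers, adjusted over the 8 clusters). With the mouse pool as a block, which leaves fewer degrees of freedom, the difference was 1.40 and the adjusted p in edgeR was 0.0985, which misses the threshold. The exact two-sided permutation test cannot go below 0.333 with these 4 libraries.

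The tissue difference in Rag1-/- mice ran the same way, from 3.60% (2.56 to 4.91) in the single gray matter library to 11.6% (10.5 to 12.8), 12.1% (10.5 to 13.8) and 13.4% (12.3 to 14.5) in white matter. Its log2 difference was 1.78 ± 0.289 (adjusted p = 0.000922, edgeR), where the spread of the single gray matter library is taken from the other groups, and 1.69 with an adjusted p of 0.143 in edgeR with the pool as a block. The exact two-sided permutation test gave p = 0.25, the smallest that these 4 libraries allow. Among Oligo2 cells alone, Oligo2a made up 13.4 and 9.36% in wild-type gray matter, 34.9 and 29.0% in wild-type white matter, 13.0% in Rag1-/- gray matter and 32.9, 33.6 and 34.9% in Rag1-/- white matter. In gray matter, Oligo2b took most of the remainder, at 86.7% of Oligo2 cells in the Rag1-/- library.

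**Figure D3:**
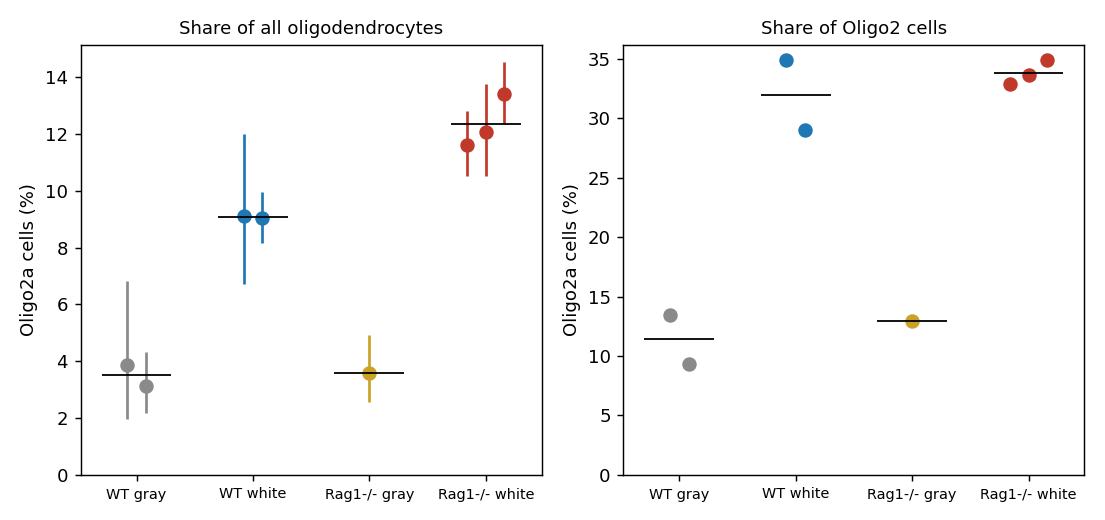
Share of Oligo2a among all oligodendrocytes (left, with 95% exact binomial intervals) and among Oligo2 cells (right) in each of the 8 libraries; horizontal lines are group means. The 5 white matter libraries, at 9.04 to 13.4% of oligodendrocytes, lie above the 3 gray matter libraries, at 3.13 to 3.87%.

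Between genotypes, the 3 Rag1-/- white matter libraries averaged 12.4% ± 0.924 (SD) and the 2 wild-type libraries 9.07% ± 0.0522. The groups did not overlap, but the log2 difference of 0.45 ± 0.199 did not pass the test (adjusted p = 0.144, edgeR), and the exact two-sided permutation test gave p = 0.10, the smallest that 5 libraries allow. Among cells under 20000 UMIs, a limit chosen after the data were seen, the groups overlapped. Rag1-/- white matter 2 lost 72 of 197 Oligo2a cells and 52 of 1435 other oligodendrocytes to that limit. The ARO cluster moved the other way, from 21.6% ± 0.0578 of wild-type to 12.2% ± 4.61 of Rag1-/- white matter oligodendrocytes, and each share depends on the others because they add up to the whole. With only the Oligo2 cells as the total, a choice made after the data were seen, the difference was 0.20 (adjusted p = 0.0214, edgeR), but the libraries of the 2 genotypes overlapped, with means of 33.8% in Rag1-/- and 31.9% in wild-type white matter (exact two-sided permutation p = 0.6). With all cells of the library as the total it was −0.13 (adjusted p = 0.953, edgeR). The tables of all cells lack 72 and 41 Oligo2a cells of Rag1-/- white matter 2 and 3, as many as held 20000 UMIs or more there. Within those tables the mean share was 5.40% in Rag1-/- and 5.87% in wild-type white matter. With the oligodendrocytes that are lacking added to both the cluster and the total, a choice made after the data were seen, the Rag1-/- mean was 6.29% and the log2 difference 0.08 (adjusted p = 0.972, edgeR).

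Within Oligo2a, 7 of 10359 genes tested differed between white and gray matter of wild-type mice (0.0676%), and all 7 were higher in white matter. No gene was called lower. Of the 10359 genes, 530 had an unadjusted p under 0.05 in edgeR, close to the share that this threshold gives without any difference. DESeq2 called 10 genes, all of them higher. The 7 genes belong to complement (C4b), the acute-phase response (Serpina3n), antigen presentation (H2-D1), interferon response (Ifi27, Ifi27l2a), extracellular matrix (Sparc) and the cytoskeleton (Tubb3). With the mouse pool as a block, 36 genes were called, 30 of them higher in white matter. That block leaves fewer degrees of freedom and only the wild-type pairs to estimate the spread, so the larger number is no stronger result.

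C4b, a complement component on chromosome 17 (34728380 to 34743882, minus strand), measured 33.0 and 96.9 CPM in wild-type gray matter and 678 and 980 in white matter. Both white matter values lay well above both gray matter values, and on the log2 scale the rise was 3.44 ± 0.32 (SE, with adjusted p = 0.000242, edgeR). C4b was found in 18.2 and 34.3% of gray matter cells and 93.3 and 90.6% of white matter cells, or in 10.0 and 25.7% against 81.4 and 80.5% after thinning to 5000 UMIs. C4b was called under all 13 other settings, from 3.12 to 4.80. In Rag1-/- mice it rose from 48.3 CPM to 397, 570 and 572 CPM (log2 fold change of 3.43 ± 0.42; adjusted p = 0.0035, edgeR), where gray matter is 1 library whose spread is taken from the other groups, and with these 4 libraries alone it missed the threshold (adjusted p = 0.0501, edgeR).

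In Oligo2b, C4b went from 79.2 and 90.3 to 647 and 776 CPM, and the change in Oligo2a minus that in Oligo2b, 0.38 ± 0.21 on the log2 scale, did not pass the test (adjusted p = 0.912, edgeR). The AROs and Oligo2c cells of wild-type white matter held 2190 to 2499 CPM of C4b, and AROs were 0 to 0.352% of gray matter oligodendrocytes. Among microglia, 0.404% of cells held a C4b UMI in the Rag1-/- gray matter library and 3.32, 9.62 and 14.8% in the white matter libraries, against 31.6% and 77.7, 92.4 and 89.6% of Oligo2a cells. The part of free RNA in these values was not tested.

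Serpina3n, an inhibitor of serine proteases and with C4b a marker of AROs, measured 6.60 and 21.5 CPM in gray matter and 103 and 131 CPM in white matter of wild-type mice, and its log2 fold change was 2.77 ± 0.37 (adjusted p = 0.0059, edgeR). In Oligo2b it went from 12.3 and 13.5 to 57.0 and 85.8 CPM. Among cells under 20000 UMIs, a limit chosen after the data were seen, Serpina3n missed the threshold (adjusted p = 0.0716, edgeR). With only the wild-type libraries in the fit, Tubb3 (adjusted p = 0.0526, edgeR) and Ifi27l2a (adjusted p = 0.0676, edgeR) missed it. Serpina3n, Ifi27, Tubb3 and Ifi27l2a lost the call without wild-type gray matter 1, which holds 11 cells (3 genes called), and Serpina3n, Ifi27 and Ifi27l2a without wild-type white matter 2. C4b was the 1 gene called without wild-type gray matter 2. H2-D1, a classical MHC class I heavy chain on chromosome 17 (35262730 to 35267499, plus strand), measured 66.0 and 39.5 CPM in gray matter and 180 and 184 CPM in white matter (2.02 ± 0.26; adjusted p = 0.0038, edgeR). Its relatives can share reads with it, so its level is uncertain to that extent. Oligo2c of wild-type white matter held 973 and 407 CPM.

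Ifi27, an interferon-induced protein of the mitochondrial membrane, measured 125 and 106 CPM in gray matter and 262 and 292 CPM in white matter (1.37 ± 0.19; adjusted p = 0.0076, edgeR). In Rag1-/- mice it rose from 52.0 CPM to 220, 213 and 246 CPM (2.14 ± 0.25; adjusted p = 0.0035, edgeR), and with these 4 libraries alone it missed the threshold (adjusted p = 0.0634, edgeR). In Oligo2b, wild-type Ifi27 was 141 and 130 CPM in gray and 158 and 199 CPM in white matter, and the tissue differences of the 2 clusters differed by 0.88 ± 0.19 (adjusted p = 0.00274, edgeR). This difference lost the call under 4 of 7 other settings, among them DESeq2 (adjusted p = 0.788) and without wild-type gray matter 1 (adjusted p = 0.0665, edgeR) or 2 (adjusted p = 0.64, edgeR). Its neighbor on chromosome 12, Ifi27l2a (103442167 to 103443680, minus strand), had 0 UMIs in all 3 gray matter libraries and 27.5 and 48.4 CPM in wild-type white matter (adjusted p = 0.0077, edgeR). Pooled over both white matter libraries, of which the second holds most cells, Ifi27l2a measured 46.0 CPM, at least 10.9-fold higher than the 4.23 CPM that 3 UMIs over the 2 wild-type gray matter libraries would be. That bound rests mainly on wild-type gray matter 2, whose Oligo2a cells held 563288 UMIs against 152610 in gray matter 1, and would be lower without it. In Rag1-/- white matter Ifi27l2a measured 31.1, 30.6 and 26.6 CPM. An Ifi27l2a UMI was found in 14.4, 14.7 and 13.5% of those Oligo2a cells, against 35.3, 29.8 and 17.6% of microglia of the same libraries and 11.4% of microglia of Rag1-/- gray matter, and the part of free RNA in its level was not tested.

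Sparc, a matrix-binding glycoprotein, measured 92.4 and 80.8 CPM in wild-type gray matter and 304 and 253 CPM in white matter (1.76 ± 0.20; adjusted p = 0.0019, edgeR). Tubb3, a beta tubulin best known from neurons, measured 119 and 120 CPM in gray matter and 331 and 271 CPM in white matter (1.36 ± 0.19; adjusted p = 0.0076, edgeR). Sparc is abundant in microglia, where 94.0 to 99.3% of Rag1-/- cells held it. The 11 microglial markers summed to 79.0 to 1201 CPM in Oligo2a of wild-type gray and to 104 to 742 CPM in wild-type white matter, and the ranges overlap. The 10 neuronal markers summed to 52.8 to 84.4 CPM in gray and 122 to 133 CPM in white matter, and Olfm1 made up most of that sum while Snap25 had 0 UMIs in both wild-type white matter libraries. The part of these cell types in the results was not tested.

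**Figure D4:**
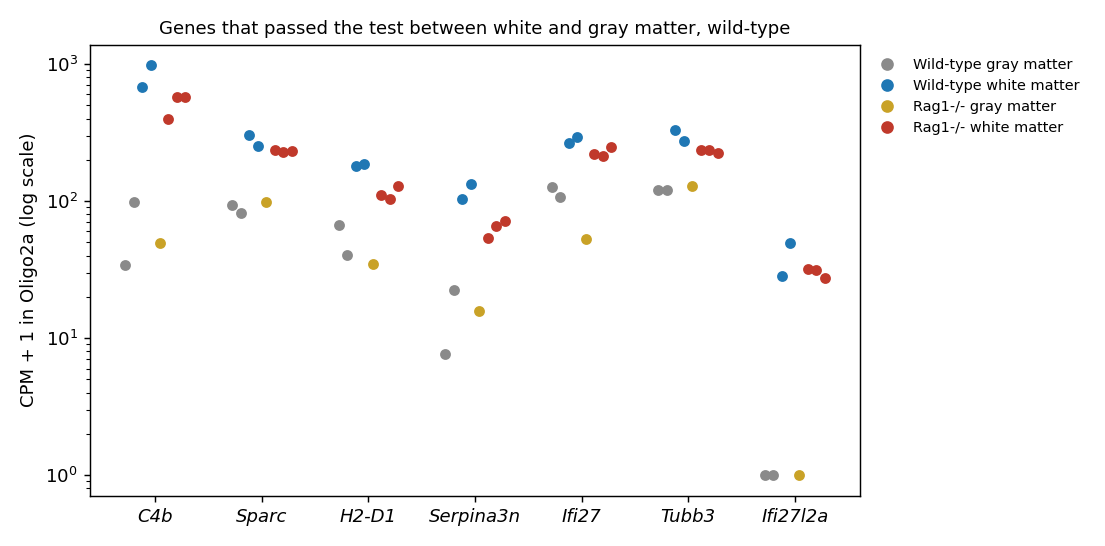
Level in Oligo2a (CPM + 1, log axis) of the 7 genes called between wild-type white and gray matter, 1 point for each library. For each gene the 2 wild-type white matter points lie above the 2 wild-type gray matter points, and the Rag1-/- white matter points also lie above the Rag1-/- gray matter point.

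The 5 genes of smallest p in the other direction did not pass the test in wild-type mice. They were Tmc7 (106 and 77.2 CPM in gray, 27.5 and 35.9 in white matter), the glutamate transporter Slc1a2 (72.6 and 84.4 against 15.9 and 9.57), Dpyd, C030029H02Rik and the glutamate receptor gene Grm7, with adjusted p from 0.182 to 0.364 in edgeR. Anln and Hopx, with log2 fold changes of 0.27 ± 0.16 and 0.35 ± 0.15 and an adjusted p of 0.931 for both in edgeR, did not pass either.

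Few members of the gene lists were called between wild-type tissues, beside 0.0676% of all genes tested. Over all genes the median log2 fold change was 0.02. Of 13 interferon-stimulated genes tested, 2 rose (Ifi27l2a and Ifi27) and the median was 0.36, and of 13 genes of MHC class I presentation, 1 rose (H2-D1) with a median of 0.56. Of 75 ARO markers, 3 rose (Serpina3n, C4b and Sparc; median of 0.66), and of 14 IRO markers, 3 rose (H2-D1, Ifi27l2a and Ifi27; median of 1.19). Both marker lists come from the study itself. None of the 22 myelin genes (median of 0.08), 22 cholesterol synthesis genes (0.08), 8 genes of the Klk6 and Hopx type (0.44) and 24 oxidative phosphorylation genes (−0.03) was called. All 14 glucocorticoid and stress response genes were higher in white matter and none was called (median of 0.91), and wild-type white matter 1 lay far above the other white matter library in several of them, with Sgk1 at 1128 against 140 CPM and Mt1 at 558 against 187 CPM. Without that library, 5 of the 14 were higher and 9 lower, with a median of −0.07. Without wild-type gray matter 2 the medians of the interferon, IRO and ARO lists were 4.98, 4.98 and 2.00, in part over genes with 0 UMIs in the remaining gray matter library, whose fitted values are no measure of size. Leaving out wild-type white matter 2 instead gave 0.54, 1.27 and 0.21, and 0.13 for the Klk6 and Hopx type. Leaving out wild-type white matter 1 gave a median of 0.24 for MHC class I genes.

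In Rag1-/- mice, with the single gray matter library assumed to vary like the others, 4 of 10359 genes (0.0386%) were called, 2 higher in white matter (Ifi27 and C4b; 0.0193%) and 2 lower (Hbb-bs and Hbb-bt; 0.0193%). With the pool as a block, this contrast compares gray matter with Rag1-/- white matter 1 alone. Its spread then comes from the wild-type pairs, so its calls carry no replication in Rag1-/- mice. H2-D1 (1.79; adjusted p = 0.077, edgeR), Sparc (1.27; adjusted p = 0.077) and Art3 followed without passing. The beta globin gene Hbb-bs measured 359 CPM in gray matter and 41.3, 19.6 and 7.32 CPM in white matter, and DESeq2 did not call it (adjusted p = 0.948). The 5 blood genes summed to 608 CPM in Oligo2a and 613 CPM in the other oligodendrocytes of the gray matter library, so they were as high outside the cluster. When only the 4 Rag1-/- libraries entered the fit, 0 genes were called in edgeR and 722 had an unadjusted p under 0.05, while DESeq2 with all libraries called 9.

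Between Rag1-/- and wild-type white matter, 88 of 10359 genes (0.85%) were called, 69 higher (0.666%) and 19 lower (0.183%). DESeq2 called 81. Without wild-type white matter 2 the balance turned, with 29 higher and 39 lower. In 74 of the 88, the 4 wild-type libraries, gray matter included, did not overlap with the 4 Rag1-/- libraries, and 59 of the 88 differed by at least 4-fold. The 88 were chosen by a test on the white matter libraries among these. The share without overlap over all genes tested was not counted, so the 74 are given as a description. Ptp4a1, a protein tyrosine phosphatase, measured 574, 540, 573 and 547 CPM in the wild-type libraries and 3.72, 2.65, 1.40 and 2.17 CPM in the Rag1-/- libraries. Atp6v0c, a proton pump subunit, went the other way, at 6.60, 3.59, 5.80 and 3.31 CPM in wild-type and 459, 520, 529 and 539 CPM in Rag1-/- libraries.

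The 8 highest genes of this comparison were Hgs, Nudt8, Cpne1, Rnasek, Nanp, Atp6v0c, Nme2 and Hbb-bs, and the 8 lowest Ptp4a1, Fam220a, AC160336.1, Gm43713, Amd2, Cd59b, Coro1b and Rps6ka4. Without wild-type white matter 2, Nudt8, Cpne1, Hbb-bs, Gm43713 and Rps6ka4 lost the call (adjusted p of 0.148 to 0.592, edgeR), and DESeq2 did not call Cd59b (adjusted p = 0.159). Hgs, an endosomal sorting protein, had 0 UMIs in all 4 wild-type libraries and 48.3, 58.9, 50.5 and 60.3 CPM in the Rag1-/- libraries. In Oligo2b, Ptp4a1 was 595 and 555 CPM in wild-type and 1.49 to 2.83 CPM in Rag1-/- white matter. The reads of the 2 genotypes were counted with different versions of Cell Ranger and different gene lists, and for these genes the genotype and the counting cannot be told apart. The blood genes, Hbb-bs among them, summed to 75.3, 34.5 and 12.7 CPM in Oligo2a of Rag1-/- white matter. In the other oligodendrocytes they summed to 89.7, 45.7 and 57.2 CPM there. In those of wild-type libraries they summed to 1383 CPM in gray matter 2 and to at most 0.261 CPM elsewhere. The part of free RNA in Hbb-bs was not tested.

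**Figure D5:**
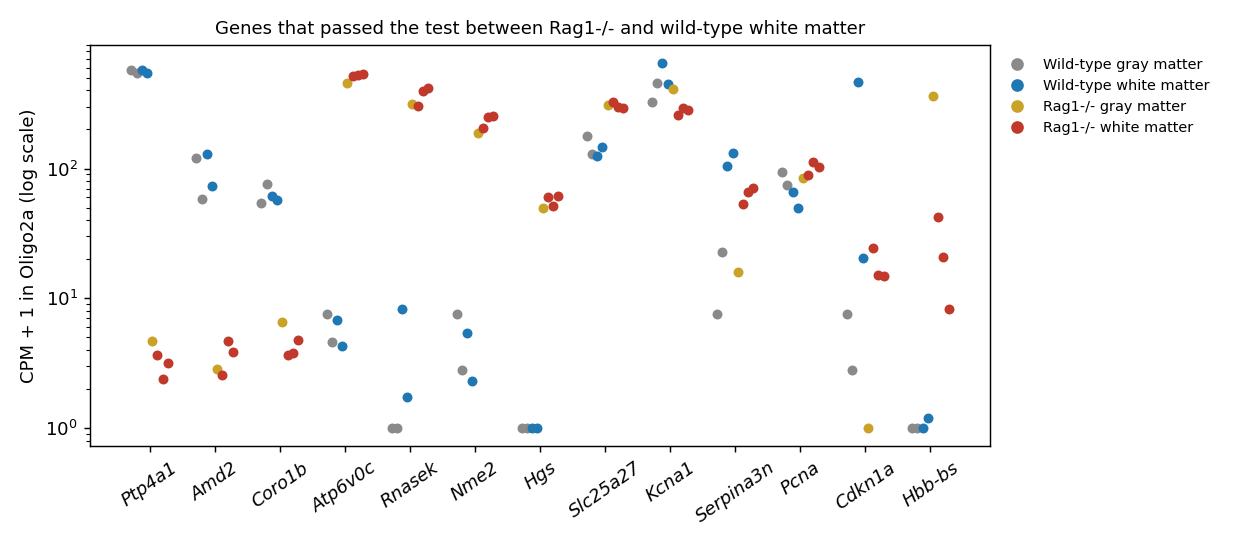
Level in Oligo2a (CPM + 1, log axis) of 13 genes called between Rag1-/- and wild-type white matter, 1 point for each library. From Ptp4a1 to Slc25a27 the 4 wild-type libraries lie wholly on one side of the 4 Rag1-/- libraries, gray matter included, and Cdkn1a shows wild-type white matter 1 at 464 CPM above all other libraries.

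Among the 14 called genes whose wild-type and Rag1-/- libraries overlapped once gray matter was included were Serpina3n, Kcna1, Pcna and Cdkn1a, singled out here after their values were seen. Serpina3n measured 103 and 131 CPM in wild-type and 52.3, 64.8 and 70.0 CPM in Rag1-/- white matter (log2 fold change of −0.89 ± 0.19; adjusted p = 0.035, edgeR). It lost the call under 6 of 14 other settings, among them DESeq2 (adjusted p = 0.0873) and cells under 20000 UMIs (adjusted p = 0.667 in edgeR, a choice made after the data were seen). In Oligo2b, Serpina3n was 57.0 and 85.8 against 41.6, 46.0 and 51.6 CPM, and the change in Oligo2a minus that in Oligo2b did not pass the test (−0.19 ± 0.13; adjusted p = 1.0, edgeR). C4b, at 678 and 980 against 397, 570 and 572 CPM, did not pass the test.

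The potassium channel gene Kcna1 measured 651 and 448 CPM in wild-type and 260, 291 and 284 CPM in Rag1-/- white matter (−0.92 ± 0.18; adjusted p = 0.015, edgeR), and −0.63 with an adjusted p of 0.217 without wild-type white matter 1. It also lost the call without Rag1-/- white matter 2 or 3. Pcna, the sliding clamp of DNA replication, measured 65.2 and 48.4 against 88.1, 111 and 102 CPM (0.95 ± 0.19; adjusted p = 0.017, edgeR), but lost the call without wild-type white matter 2 and without Rag1-/- white matter 2 or 3. In Oligo2b it measured 80.5 and 48.2 against 92.7, 120 and 118 CPM. Of the 5 cell division genes tested, Pcna was the 1 called. Cdkn1a rested on wild-type white matter 1, where it measured 464 CPM against 19.5 CPM in the other wild-type and 13.8 to 23.2 CPM in the Rag1-/- white matter libraries. Its log2 fold change went from −3.63 (adjusted p = 0.035, edgeR) to −0.15 (adjusted p = 1.0) without that library. Slc25a27, a mitochondrial carrier and an Oligo2 marker of the study, measured 125 and 146 CPM in wild-type and 323, 296 and 291 CPM in Rag1-/- white matter (1.18 ± 0.14; adjusted p = 0.00018, edgeR) and was also set apart in gray matter, at 178 and 128 against 307 CPM.

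Gene groups gave few calls between genotypes. Over all genes the median log2 fold change was −0.01, with 5341 of 10359 lower in Rag1-/- mice. Of 13 interferon-stimulated genes, 0 were called, 11 were lower in Rag1-/- mice and the median was −0.39, and of 14 IRO markers 0 were called, 13 were lower and the median was −0.61. Without wild-type white matter 2, 6 interferon-stimulated genes were tested, 4 of them higher and 2 lower (median of 0.09). Of the 7 IRO markers tested there, 2 were higher and 5 lower (median of −0.63). Of 13 MHC class I genes 0 were called (−0.03), of 75 ARO markers 1 fell (Serpina3n; median of −0.20) and of 49 Oligo2 markers 1 rose (Slc25a27; median of 0.10). Without wild-type white matter 2 the median was −0.57 for 9 MHC class I genes and 0.21 for Oligo2 markers. It was −0.05 for 45 ARO markers, 22 of them higher and 23 lower. Of 14 glucocorticoid and stress response genes, 1 fell (Cdkn1a; median of −0.91), whereas without wild-type white matter 1 none was called, 7 were higher and 7 lower, and the median was −0.03. Without wild-type white matter 2, 8 of the 14 were called lower, with a median of −1.76. Myelin genes (0 of 22; median of 0.02), cholesterol synthesis genes (0 of 22; 0.11) and oxidative phosphorylation genes (0 of 24; 0.16) gave no call. Over all genes, 0.85% were called.

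Whether these effects differ between Oligo2a and Oligo2b was tested as a term of its own, with the library as a block, over 11609 genes. For the tissue difference of wild-type mice, 21 genes were called (0.181%), 16 with the more positive white minus gray change in Oligo2a (0.138%) and 5 with the more negative one (0.0431%). DESeq2 called 2, and without single libraries the number ran from 8 to 38. The clusters were drawn from the same counts, so the terms of genes that set Oligo2a apart, among them Hopx, Enpp6, Klk6, S100b and Ldhb, are not independent of how cells were assigned and are given as a description. Hopx, one of the markers of the cluster, went in Oligo2b from 172 and 150 to 366 and 419 CPM and in Oligo2a from 851 and 776 to 947 and 1025 CPM, a difference of −1.0 ± 0.12 on the log2 scale. For Enpp6, an ectoenzyme of newly formed oligodendrocytes, the difference was −0.94 ± 0.12, with 203 and 157 CPM in gray against 307 and 319 CPM in white matter of Oligo2b and 686 and 495 against 432 and 539 CPM in Oligo2a. In Oligo2a, Enpp6 was thus lower in white matter in the first pool and higher in the second.

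For the genotype difference in white matter, 8 genes were called (0.0689%), 1 with the more positive (0.00861%) and 7 with the more negative change in Oligo2a (0.0603%), and DESeq2 called 0, with 67 genes at an unadjusted p under 0.05. Slc25a27 rose in both clusters, at 55.3 and 54.1 against 186, 177 and 173 CPM in Oligo2b. Its rise was smaller in Oligo2a by −0.62 ± 0.12 on the log2 scale (adjusted p = 0.000232, edgeR), but by −0.39 without wild-type white matter 2. It was higher in Oligo2a than in Oligo2b in these libraries, so its term is not independent of how cells were assigned and is given as a description. Kcna1 measured 583 and 629 against 444, 505 and 518 CPM in Oligo2b. Its change in Oligo2a minus that in Oligo2b was −0.48 ± 0.08 (adjusted p = 2.4e-06, edgeR). Except in wild-type white matter 1, Kcna1 was lower in Oligo2a than in Oligo2b in these libraries. Its term too is thus not independent of how cells were assigned and is given as a description. That term of Kcna1 ran from −0.96 to −0.31 without single libraries, and DESeq2 did not call it (adjusted p = 1.0).

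The Oligo2a cells held few UMIs of oligodendrocyte precursor, T and NK cell and vascular markers. The 8 markers of oligodendrocyte precursors summed to at most 14.9 CPM in any library, the 8 markers of T and NK cells to at most 26.1 CPM with Cd3e at 0 in all libraries, and the 11 markers of endothelium and pericytes to at most 24.3 CPM with Cdh5 at 0. Astrocyte markers summed to 170 to 317 CPM in Oligo2a. The 5 choroid plexus markers summed to 1701 to 2307 CPM in Oligo2a and to 1812 to 2290 CPM in the other oligodendrocytes, and Enpp2, which oligodendrocytes also express, made up 1686 to 2276 CPM of that in Oligo2a. The 11 microglial markers summed to as much as 1201 CPM, in wild-type gray matter 1. Microglial markers followed the wild-type pool, with C1qa at 257 and 226 CPM in gray and white matter 1 and at 8.98 and 9.57 CPM in gray and white matter 2, and the part of microglial RNA in the gene comparisons was not tested.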

How the data were processed

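The tables the authors deposited hold raw UMI counts, one whole number for every gene and cell. Per the labels and the study's methods, reads were aligned to mm10 with Cell Ranger (version 4 in the submitters' processing notes, with other versions for other experiments), cells were filtered on genes, UMIs and mitochondrial share with limits that differed between experiments, and 2 genes were removed in some of them. The members and gene lists were chosen with earlier results of these data known.

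Counts of the cells with the authors' cluster name Oligo2a were summed for each library, over the 16999 genes listed for both genotypes, which hold 99.0% of Oligo2a UMIs. Libraries were the replicates. Sums were fitted in edgeR 4.0.16 (R 4.3.3) with 4 groups (genotype by tissue), filterByExpr as the filter on low counts and TMM scaling. The quasi-likelihood test was two-sided, and genes at a Benjamini-Hochberg adjusted p under 0.05 were called. Standard errors follow from the F statistic. Shares were fitted with the same test on cell numbers of the 8 clusters. The term for a different effect in Oligo2a and Oligo2b had the library as a block. The fits were also run on simulated counts. These were drawn with the same dispersion for every gene and without pool effects or outlying libraries, so their rates need not hold for the data. On simulated counts for 9990 genes, the wild-type tissue fit recovered 26.3% of 2-fold and 76.5% of 4-fold changes with 5 false calls, the Rag1-/- tissue fit (9997 genes) 20.6 and 56.6% with 2, and the genotype fit (10004 genes) 79.2 and 96.0% with 18. Residuals of the 2 wild-type pools, whose gray and white matter come from the same mice, were correlated across genes (r = 0.119). With 2 libraries in a group the residuals mirror each other, so r is the same for both pools by construction and counts once. The libraries are pools of mice or, for Rag1-/- white matter 2 and 3, 1 mouse each, and p-values measure the spread between these libraries.

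CPM values are UMI counts scaled to 1e6 over the same genes. Clusters were compared as a description, by the median over libraries of the log2 CPM difference with 0.5 added, among genes with at least 50 CPM on one side. Named genes were the 16 highest and 8 lowest there, the 6 highest against Oligo2b and against Oligo2c, up to 8 called genes at each end of a contrast without overlap (with fewer than 3 calls in a direction, the 5 of smallest p), called members of lists, the 6 terms of smallest p and Rag1; further genes were chosen after their values were seen. Some genes that the rule names are not reported here. Doublets were treated by the authors' filters alone. Intervals cover counting error only. The microglia annotation also holds 4 libraries of another series (8171 cells), which were not used. Alternatives covered DESeq2 1.42.0, scaling, filters, totals, blocks and leaving out each library.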

Additional observations from a re-analysis of the deposited data

Results flagged for a closer look

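These results stood out because the change between groups differed between Oligo2a and Oligo2b by a test of the difference itself (edgeR, library as a block, 11609 genes). The clusters were drawn from the same counts. The terms of genes that set Oligo2a apart are thus not independent of how cells were assigned, and are given as a description. Among these genes are Hopx, Enpp6, Klk6, S100b, Ldhb, Ptgds, Slc25a27, Opalin and, in most white matter libraries, Kcna1. In wild-type mice, 21 genes differed in their tissue change. Those of smallest p were Hopx (−1.0 on the log2 scale, Oligo2a minus Oligo2b), Enpp6 (−0.94), Sgk1 (1.05), Ldhb (1.01), Klk6 (−1.06) and S100b (−0.66). For Hopx, Klk6 and S100b the white minus gray change was the more positive one in Oligo2b. In Oligo2a, Klk6 went from 633 to 562 CPM in the first pool and from 442 to 957 CPM in the second, and S100b from 1735 to 1373 and from 1142 to 1744 CPM. Klk6 in Oligo2b measured 15.0 and 22.3 CPM in gray and 40.2 and 93.0 CPM in white matter. Sgk1 measured 125 and 187 CPM in gray and 1128 and 140 CPM in white matter of Oligo2a, and without wild-type white matter 1 its difference was 0.31 (adjusted p = 0.841, edgeR). The difference of Klk6 was −0.65 (adjusted p = 0.766, edgeR) and that of Ldhb 0.47 (adjusted p = 0.800) without wild-type white matter 2, and DESeq2 called neither. That of S100b was −0.64 (adjusted p = 0.124, edgeR) without wild-type white matter 2, and DESeq2 did not call it (adjusted p = 0.514).

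Between Rag1-/- and wild-type white matter, 8 genes differed in their change. Those of smallest p were Ptgds (−0.68), Sgk1 (−0.60), Kcna1 (−0.48), Slc25a27 (−0.62), Opalin (−0.47) and Tmod2 (−0.36), and DESeq2 called none of them. Without wild-type white matter 1, Ptgds was at −0.02 and Tmod2 at −0.09 (adjusted p = 1.0 for both, edgeR), and Sgk1 changed sign. Without wild-type white matter 2, Slc25a27 was at −0.39 (adjusted p = 0.843, edgeR) and Opalin at −0.38 (adjusted p = 0.697). The causes were not tested.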

How the results depend on the processing

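Of the settings tried for counts of called genes and for shares, 61 kept the result and 25 moved it. The call was lost in 2, gained in 1 and reversed in 1. For counts, kept means only that a similar number of genes was called, whichever genes they were and in either direction. Between genotypes, the setting without wild-type white matter 2 counts as kept, although the balance of directions turned there. Of the settings for named genes, 426 kept the call, while 84 lost it in the same direction and 1 reversed. The share of Oligo2a rose in white matter throughout, but missed the threshold with the mouse pool as a replicate block, at 1.40 in wild-type and 1.69 in Rag1-/- mice, and lay at 1.23 to 1.53 and 1.72 to 1.82 when single libraries were left out. The genotype difference in share lay at 0.38 to 0.49 without single libraries, reversed to −0.13 with all cells as the total, in tables that lack 72 and 41 Oligo2a cells of 2 Rag1-/- libraries, was 0.08 with the lacking oligodendrocytes added (chosen after seeing the data), and was 0.20, past the threshold, with only Oligo2 cells as the total (also chosen after seeing the data; exact permutation p = 0.6). Genes called between wild-type tissues numbered 44 without a filter on low counts, 3 with at least 20 cells in a library, 36 with the block and 1 to 11 without single libraries. Between genotypes the numbers were 180 without a filter and 64 to 121 without single libraries. Between Rag1-/- tissues they were 9 in DESeq2, 60 without a filter, 2 with at least 20 cells, 0 with these 4 libraries alone, 22 with the block and 3 to 20 without single libraries. Differences between Oligo2a and Oligo2b in the tissue change numbered 2 in DESeq2, 70 against all other oligodendrocytes and 8 to 38 without single libraries, and in the genotype change 0, 26 and 2 to 39. The difference of Sgk1 in the genotype change ran from −1.86 to 0.14 without single libraries. The cause was not tested. Leaving out the single Rag1-/- gray matter library gives no value for its contrast. With the mouse pool as a block, that contrast compares it with Rag1-/- white matter 1 alone. The spread in the block comes from the wild-type pairs, so the block counts are no stronger result. Restricting cells to under 20000 UMIs, also chosen after seeing the data, gave 6, 85 and 4 called genes in the 3 comparisons. Gray matter sums of few cells limit what could be detected there. Batch numbers shared across genotypes name no common animals. Their residuals were not positively correlated (−0.07 to −0.04), but these values are tied to one another because the residuals of a group cancel out. With that number as a replicate block, 101 genes were called between genotypes.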
